A study of Mus musculus with 16 samples.

Results

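The mitochondrial genome of the mouse was described here through its 37 annotated genes, the rows whose sequence name is MT, out of 39179 genes in the count tables. They are 13 protein-coding genes (mRNA), 2 ribosomal RNA genes (rRNA) and 22 transfer RNA genes (tRNA), and no measured value entered their choice. Their counts were read in 2 ways, as a share of all counts in genes and as a share of the mitochondrial counts. All animals were adult TERT-AD mice of strain B6.129S6.SvEvTac, and the labels neither expand that name nor give sex, exact age, the driver of Tert activation or how neurons were isolated. Total RNA was taken with Trizol from hippocampal neurons of mice given tamoxifen, from hippocampal neurons labelled control, from cortical neurons of mice given tamoxifen and from cortical neurons labelled control, where the treatment text names vehicle as the alternative to tamoxifen. Each of these 4 groups had 4 libraries, 16 in all, and the question the study names is what activating Tert, the catalytic subunit of telomerase, changes in neurons.

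Mitochondrial DNA is a small circle that is transcribed from both strands into long precursor RNAs. The tRNAs that punctuate these precursors are cut out, which frees the rRNAs and mRNAs between them, so that genes of 1 strand start from a shared transcript and differ mainly in how long each product lasts. The mRNAs encode core subunits of respiratory complexes I, III and IV and of ATP synthase, and neurons, whose firing is paid for by oxidative phosphorylation, are known for a high content of mitochondrial RNA.

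In each group, libraries 1 and 2 were close repeats of one another, as were libraries 3 and 4. Over genes with more than 4000 counts, the median variance between such neighbours was 1.42 to 2.95 times the Poisson value in the 8 neighbouring pairs, against 6.17 to 340 times in the 16 other pairs. Neighbours were therefore summed into samples A and B, which leaves 2 samples per group and 8 in all, each holding 83527470 to 108293362 counts in genes. Whether libraries come from the same animal is not in the labels, so the p-values below cover the spread among 8 samples that may be technical repeats. Tert itself had 15 to 230 counts per library, and its CPM, counts scaled to a common library size, were 0.931 and 2.04 with tamoxifen against 1.29 and 3.59 in controls in hippocampus, and 1.26 and 2.05 against 0.546 and 1.32 in cortex. The groups overlapped in both regions (edgeR adjusted p 1 and 0.834), and whether the Tert row counts the activated allele is not given in the sources used here. Markers of neurons were present in every sample, with 5 excitatory neuron markers summing to 4915 to 8196 CPM. Those of other cells were present too, as 5 oligodendrocyte markers summed to 20853 to 81169 CPM, 6 astrocyte markers to 5729 to 8292 CPM and 3 choroid plexus markers to 3.71 to 14616 CPM. None of the markers on the 8 lists was at 0 in any sample. In such bulk samples fewer cells of a type and less RNA per cell cannot be told apart.

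Mitochondrial genes took 20.1 to 32.1% of the counts in genes in the 16 libraries. In hippocampal samples the share was 25.6 and 25.2% with tamoxifen, against 25.4 and 24.0% in controls. In cortical samples it was 29.9 and 20.4% with tamoxifen, against 31.0 and 31.5% in controls. Cortical tamoxifen sample B stood apart from the 7 others, and both of its libraries (20.1 and 20.7%) lay below every other library. The hippocampal groups overlapped, and both cortical tamoxifen samples lay below both cortical controls.

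**Figure D1:**
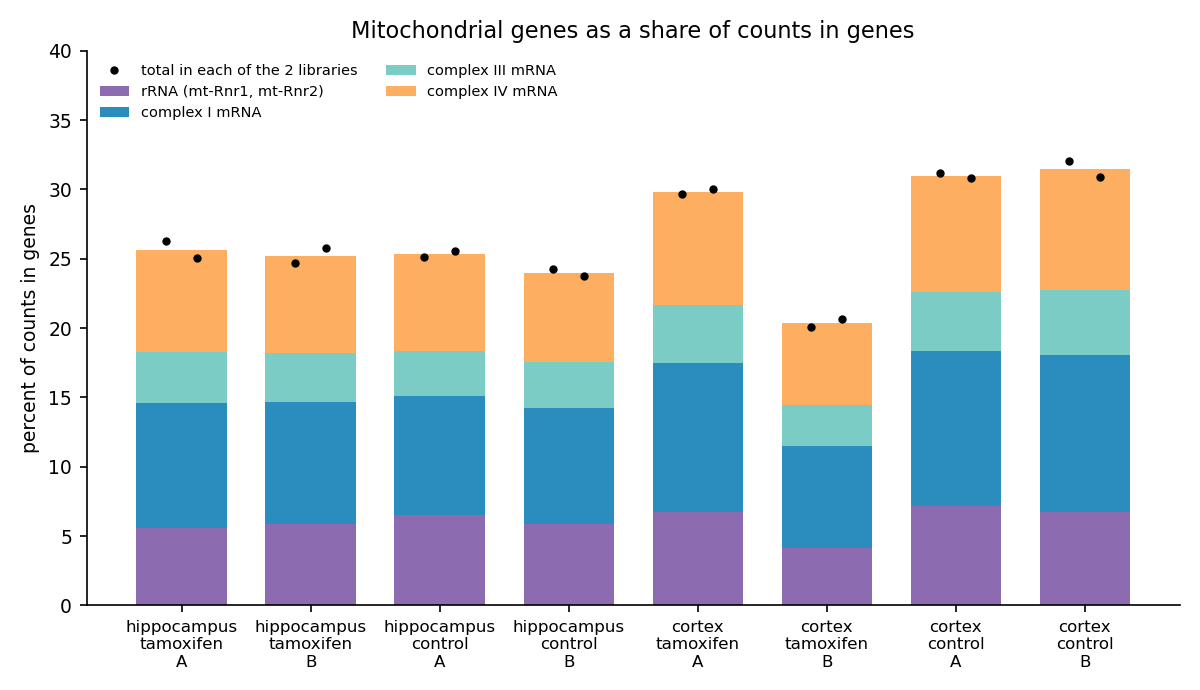
Share of counts in genes taken by mitochondrial rRNA and by the mRNAs of complexes I, III and IV (stacked bars, percent) in the 8 samples, with the total of each library as points. Cortical tamoxifen sample B reaches 20.4%, the other cortical samples 29.9 to 31.5% and the hippocampal samples 24.0 to 25.6%. ATP synthase mRNAs and tRNAs, at most 0.0422 and 0.0934% of the mitochondrial counts, are too small to draw.

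The tamoxifen samples minus controls differed by 0.749 percentage points in hippocampus (exact permutation test, two-sided p = 0.667) and by -6.13 percentage points in cortex (p = 0.333). With 2 samples against 2 the smallest p such a permutation test can give is 0.333, and the pooled SD within groups was 3.41 percentage points. The cortical difference was -1.37 percentage points without sample B of the tamoxifen group and -10.9 without sample A, so its size rests on 1 sample. As a share of all reads, those given to no gene included, the hippocampal difference turned to -0.0411 and the cortical one was -2.96. The tamoxifen effect in hippocampus minus that in cortex was 6.88 percentage points (exact permutation test p = 0.111, smallest possible 0.0556), and 2.12 without cortical tamoxifen sample B or 11.65 without sample A. For the mRNAs alone this difference of effects was 5.87 percentage points (exact permutation test p = 0.0556, the smallest possible), and 2.42 without cortical tamoxifen sample B or 9.32 without sample A. Those mRNA shares were 20.1 and 19.3% with tamoxifen against 18.8 and 18.1% in controls in hippocampus, and 23.1 and 16.2% against 23.8 and 24.8% in cortex, so that the tamoxifen samples lay above their controls in 1 region and below them in the other.

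Hippocampal samples, both labels together, had a mitochondrial share of 24.0 to 25.6%, against 20.4 to 31.5% in cortical samples, a difference of -3.14 percentage points (exact permutation test p = 0.222). Without cortical tamoxifen sample B the regions no longer overlapped, at 24.0 to 25.6% against 29.9 to 31.5%, and the difference was -5.52. Without cortical tamoxifen sample A instead, the difference was smaller than with all samples. The cortical samples left, at 31.0, 31.5 and 20.4%, then lay on both sides of the hippocampal ones. As a share of all reads the regional difference was -0.967, and reads aligned to several places made up 27.5 to 35.4% of all counts. Marker levels differed in both directions in cortical tamoxifen sample B. Its inhibitory neuron markers summed to 211 CPM, with 115 CPM in the other tamoxifen sample, against 121 and 133 CPM in cortical controls. Its excitatory neuron markers, at 8196 CPM, were the highest of the cortical samples. Its oligodendrocyte markers summed to 20853 CPM, with 81169 CPM in the other tamoxifen sample, against 61153 and 62775 CPM in cortical controls. Its 4 endothelial markers summed to 223 CPM, with 470 CPM in the other tamoxifen sample, against 480 and 445 CPM in cortical controls. Its choroid plexus markers summed to 3.71 CPM, with 5924 CPM in the other tamoxifen sample, against 1055 and 5.18 CPM in cortical controls, so they were nearly as low in control sample B, whose mitochondrial share was the highest. The 6 astrocyte markers summed to 6251 and 5729 CPM in cortical tamoxifen samples, against 7876 and 8292 CPM in cortical controls. In hippocampus they were higher with tamoxifen, at 8018 and 7293 CPM against 6001 and 6589 CPM in controls. Between regions the sums of both neuron lists were lower in hippocampus and that of microglia higher, each without overlap. The part of these cell types in the mitochondrial shares was not tested.

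Within the mitochondrial counts the make-up was close in all samples. The 2 rRNAs and 7 of the mRNAs (mt-Nd1, mt-Nd2, mt-Nd4, mt-Nd5, mt-Nd6, mt-Cytb and mt-Co1) held 99.73 to 99.82% of them. Per kilobase of gene, mt-Co1 was the highest at a median of 46150 CPM over the 16 libraries, followed by mt-Cytb at 31510, mt-Nd1 at 27770, mt-Rnr2 at 24620, mt-Rnr1 at 24440, mt-Nd2 at 18780, mt-Nd4 at 13710, mt-Nd6 at 10940 and mt-Nd5 at 10740. This is an order of counts, since 60.8% of the 100-base windows of mt-Nd4 and 30.8% of those of mt-Co1 also occur in nuclear transcripts. The order of neighbours was the same in all 16 libraries for 6 of the 8 steps. The exceptions were mt-Rnr2 and mt-Rnr1, where mt-Rnr2 was the higher in 5 of 16 libraries, and mt-Nd6 and mt-Nd5, where mt-Nd6 was the higher in 13 of 16. The smallest steps that kept their order were mt-Nd1 over mt-Rnr2 and mt-Nd4 over mt-Nd6, with ratios per kilobase as low as 1.01 and 1.

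**Figure D2:**
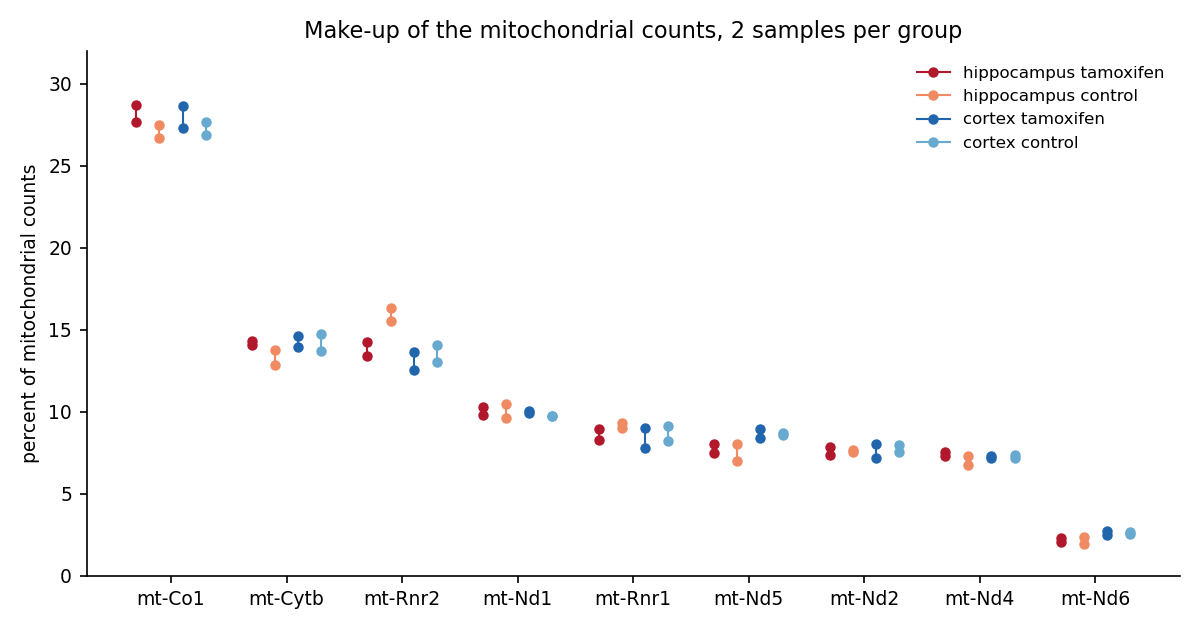
Share of the mitochondrial counts (percent) held by each of the 9 most counted genes, with 2 samples per group joined by a line. mt-Co1 holds 26.7 to 28.7% in every sample. mt-Rnr2 is highest in hippocampal controls, and mt-Nd5 and mt-Nd6 are lower in hippocampal than in cortical samples.

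The 12S and 16S rRNAs, mt-Rnr1 and mt-Rnr2, build the mitochondrial ribosome and lie first on the heavy-strand precursor. Together they held 21.7 and 23.2% of the mitochondrial counts in hippocampal tamoxifen samples, against 25.6 and 24.5% in hippocampal controls. In cortex they held 22.6 and 20.4% with tamoxifen, against 23.2 and 21.3% in controls. The hippocampal groups did not overlap and the cortical groups did. The differences were -2.64 percentage points in hippocampus (exact permutation test p = 0.333) and -0.743 in cortex (p = 0.667; 0.392 without tamoxifen sample B and 0.217 without control sample A), with a pooled SD of 1.25, and the difference between these effects was -1.90 (exact permutation test p = 0.444), and -0.762 without cortical tamoxifen sample A or -3.03 without sample B. Most of the hippocampal difference was in mt-Rnr2, which held 13.4 and 14.3% with tamoxifen against 16.3 and 15.5% in controls. mt-Rnr1 held 8.25 and 8.94% against 9.30 and 8.99%. Per kilobase, mt-Rnr2 had 98.2 and 96.3 counts for each 100 counts of mt-Rnr1 in hippocampal tamoxifen samples, against 106 and 104 in hippocampal controls, while cortical samples ran from 91.0 to 97.2. Hippocampal controls were thus the only samples above 100. In single libraries mt-Rnr2 was the higher per kilobase in 5 of 16, and hippocampal controls have 4 libraries, so a library of another group also lay above 100. In hippocampus the tamoxifen samples minus controls differed by -7.87 (exact permutation p = 0.333, the smallest possible). The difference of the tamoxifen effects was -7.49 (exact permutation p = 0.222), and hippocampus minus cortex was 6.89 (exact permutation p = 0.111).

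Complex I, the NADH dehydrogenase that feeds electrons into the chain, takes 7 mitochondrial subunits, of which mt-Nd1, mt-Nd2, mt-Nd4, mt-Nd5 and mt-Nd6 held nearly all counts. All 7 together held 33.9 to 35.2% of the mitochondrial counts in hippocampal samples and 36.0 to 36.2% in cortical samples, with no overlap. The regional difference was -1.37 percentage points (exact permutation test within labels, p = 0.0556, the smallest possible). The rRNA share of the same total differed the other way, by 1.88 percentage points with overlap (exact permutation test within labels, p = 0.111). Shares of 1 total are tied to one another, and the complex I share of the mRNAs alone was not tested. mt-Nd5, a proton-pumping subunit, held 7.50 and 8.05% in hippocampal tamoxifen samples and 6.96 and 8.05% in hippocampal controls, against 8.36 and 8.92% in cortical tamoxifen samples and 8.57 and 8.73% in cortical controls. Every hippocampal sample lay below every cortical one. The same held for mt-Nd6, the only mRNA of the light strand, at 2.06 and 2.31% in hippocampal tamoxifen samples and 1.93 and 2.33% in hippocampal controls, against 2.46 and 2.70% in cortical tamoxifen samples and 2.56 and 2.67% in cortical controls.

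The regional differences were -1.0 percentage points for mt-Nd5 and -0.442 for mt-Nd6, each with an exact permutation p of 0.0556, the smallest possible, and 0.25 after Benjamini-Hochberg adjustment over the 9 genes. Relative to mt-Nd1, which lies near the start of the heavy-strand precursor, mt-Nd5 had 66.4 to 84.0 counts per 100 in hippocampal samples, against 84.4 to 89.5 in cortical samples. mt-Nd6 had 27.4 to 29.0 counts for each 100 of mt-Nd5 in hippocampal samples, against 29.4 to 30.6 in cortical samples. Neither ratio overlapped between regions over samples (exact permutation p = 0.0556 each). For mt-Nd5 per 100 mt-Nd1 the difference of -11.3 was -6.91 without hippocampal control sample A. The hippocampal samples A, at 73.0 with tamoxifen and 66.4 in controls, carried most of it, since samples B stood at 82.0 and 84.0. In single libraries the regions met, at 84.3 in hippocampal control library 4 and in cortical tamoxifen library 2. Between tamoxifen and control samples both ratios overlapped in each region. mt-Nd1 held 9.59 to 10.5% and mt-Nd4 6.77 to 7.53% of the mitochondrial counts over all 8 samples, and neither separated the regions.

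The strand setting of the counting is not given in the sources used here. Of 57 genes lying wholly inside exons of a well-counted gene on the opposite strand, 52 had 0 counts in every library, as did 72 of 91 such genes on the same strand. Reads of mt-Nd6 and RNA from the strand opposite to it cannot be told apart.

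Complex III takes a single mitochondrial subunit, cytochrome b, encoded by mt-Cytb. It held 14.3 and 14.1% of the mitochondrial counts in hippocampal tamoxifen samples against 12.8 and 13.8% in hippocampal controls, and 13.9 and 14.6% in cortical tamoxifen samples against 13.7 and 14.7% in cortical controls. The hippocampal groups did not overlap, at a difference of 0.889 percentage points (exact permutation p = 0.333, pooled SD 0.559), which was 0.415 without control sample A and 1.36 without control sample B. The cortical groups overlapped. mt-Co1, the catalytic subunit of cytochrome c oxidase (complex IV), held 28.7 and 27.7% in hippocampal tamoxifen samples against 27.5 and 26.7% in hippocampal controls. In cortex it held 27.3 and 28.6% with tamoxifen against 26.9 and 27.7% in controls. Hippocampal tamoxifen samples again lay above their controls, by 1.09 percentage points (exact permutation p = 0.333, pooled SD 0.719), which was 0.582 without tamoxifen sample A and 0.706 without control sample B. The hippocampal samples that were higher in mt-Cytb and mt-Co1 shares were those lower in the rRNA share, and shares of 1 total cannot move independently.

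The other 6 mRNAs had few counts. They were mt-Co2 and mt-Co3 of complex IV, mt-Atp6 and mt-Atp8 of ATP synthase, and mt-Nd3 and mt-Nd4l of complex I, which lie in a row between mt-Co1 and mt-Nd4. Per kilobase their medians over libraries were 116 CPM for mt-Co2, 41.3 for mt-Atp8, 117 for mt-Atp6, 129 for mt-Co3, 204 for mt-Nd3 and 61.8 for mt-Nd4l. The lowest of the 9 other genes, mt-Nd5, stood 52.7 times above the highest of these 6.

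**Figure D3:**
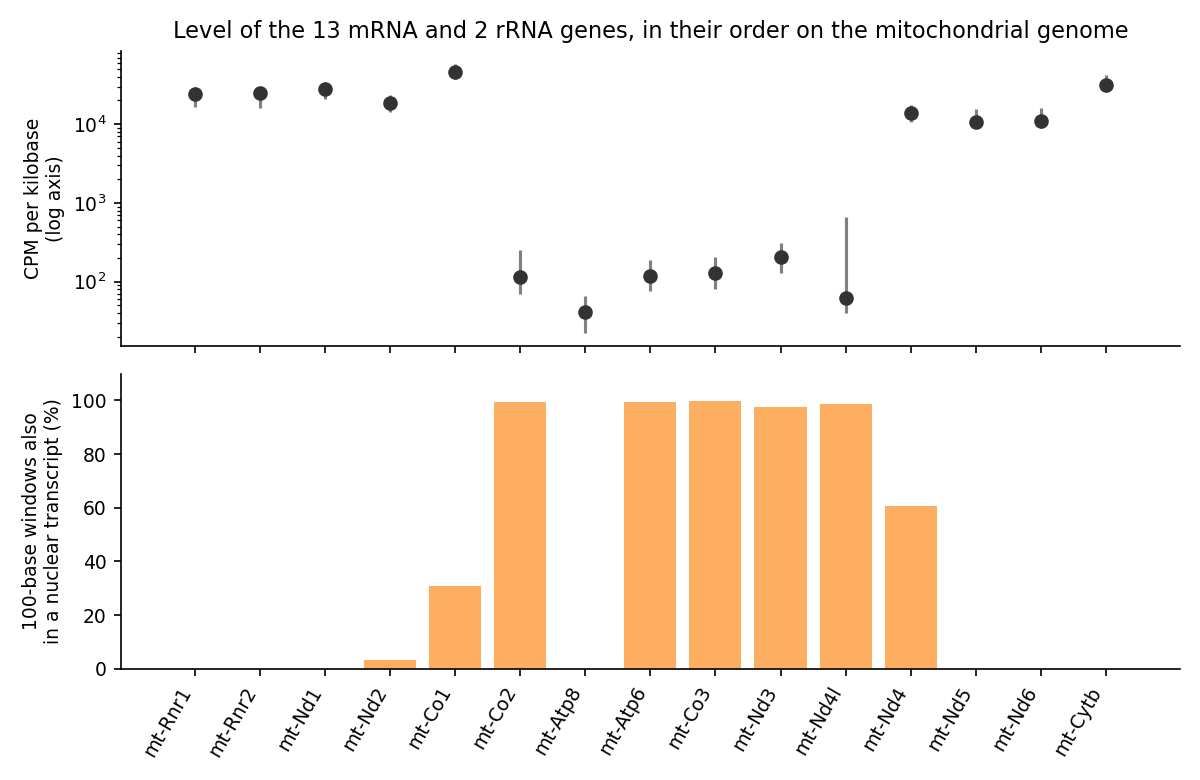
Level per kilobase (CPM, log axis, median with the range over 16 libraries) of the 15 mRNA and rRNA genes in genome order, above the percent of 100-base windows of each gene that also occur in a nuclear transcript. The 6 low genes lie side by side at 41.3 to 204 CPM per kilobase, and 5 of them share over 90% of their windows.

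These low levels go with sequence that also exists in the nucleus. In the GENCODE M21 transcripts, 97.6 to 99.9% of the 100-base windows of mt-Co2, mt-Atp6, mt-Co3, mt-Nd3 and mt-Nd4l occurred in a nuclear transcript, against 60.8% for mt-Nd4, 30.8% for mt-Co1, 3.20% for mt-Nd2 and 0% for mt-Rnr1, mt-Rnr2, mt-Nd1, mt-Nd5, mt-Nd6, mt-Cytb and mt-Atp8. The windows of mt-Nd2 came from a chromosome 2 pseudogene, Gm13339, and 380 of the 446 shared windows of mt-Co1 from chromosome 1. The copies of mt-Co2, mt-Atp6, mt-Co3, mt-Nd3, mt-Nd4l and mt-Nd4, with that of part of mt-Co1, lay in 1 block at chr1:24611535-24616197 on the minus strand of GRCm38, where 7 annotated pseudogenes are collinear, but for a shift of 1 base, with bases 6381 to 11043 of the mitochondrial genome. Over 4149 aligned bases these 7 pseudogenes differed from the mitochondrial genes at 7 positions, 6 of them in the copy of mt-Co1 and 1 in the copy of mt-Nd3. mt-Atp8 has no annotated pseudogene there and its 0% is no measure of its copy, since it would lie at bases 24614609 to 24614812, mostly between annotated pseudogenes. How many reads of these genes stood among those aligned to several places was not tested, so the counts of the 6 genes are not read here as levels of their mRNAs. The same limit holds for the shared parts of mt-Nd4 and mt-Co1, whose counts per kilobase do not rank their mRNA levels against the other genes.

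The sequences of mt-Nd4l and mt-Atp8 show both kinds of shared sequence. mt-Nd4l (MT:9877-10173, plus strand, GRCm38, from GENCODE M21) is identical over 294 bases to the chromosome 1 pseudogene Gm10222 (chr1:24612407-24612700), and capitals mark the 3 bases, its stop codon, that lie beyond the pseudogene. In mt-Atp8 (MT:7766-7969, plus strand) capitals mark the 43 bases that are also the start of mt-Atp6, where a read belongs to both genes.
mt-Nd4l: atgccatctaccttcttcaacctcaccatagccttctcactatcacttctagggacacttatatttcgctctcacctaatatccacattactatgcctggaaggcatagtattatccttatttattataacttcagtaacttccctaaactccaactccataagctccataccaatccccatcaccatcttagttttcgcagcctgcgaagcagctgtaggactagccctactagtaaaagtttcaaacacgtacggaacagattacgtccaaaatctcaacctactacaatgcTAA
mt-Atp8: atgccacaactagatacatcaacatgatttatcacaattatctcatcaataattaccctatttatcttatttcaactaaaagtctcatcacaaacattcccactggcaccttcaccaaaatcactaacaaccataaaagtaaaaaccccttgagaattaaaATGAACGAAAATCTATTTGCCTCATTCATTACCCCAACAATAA

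The counts of mt-Nd4l and of Gm10222 were uneven between libraries that otherwise agreed. mt-Nd4l had 11292 counts in cortical tamoxifen library 3, 604 in its neighbour, library 4, and 604 to 1192 in the 15 other libraries. Gm10222, the only one of the 7 pseudogenes of the block counted in the tables analysed here, had 1746 counts in cortical tamoxifen library 4 and 2701 in hippocampal tamoxifen library 4, against 502 to 1017 in the 14 others. These are single libraries, not groups, and in each case the neighbouring library of the same sample lay within the range of the rest. The chromosome 2 copy of mt-Co1, Gm13340, which differs from it at 37 of 1545 bases, had 4037 to 7900 counts, against 2537201 to 4318579 for mt-Co1.

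**Figure D4:**
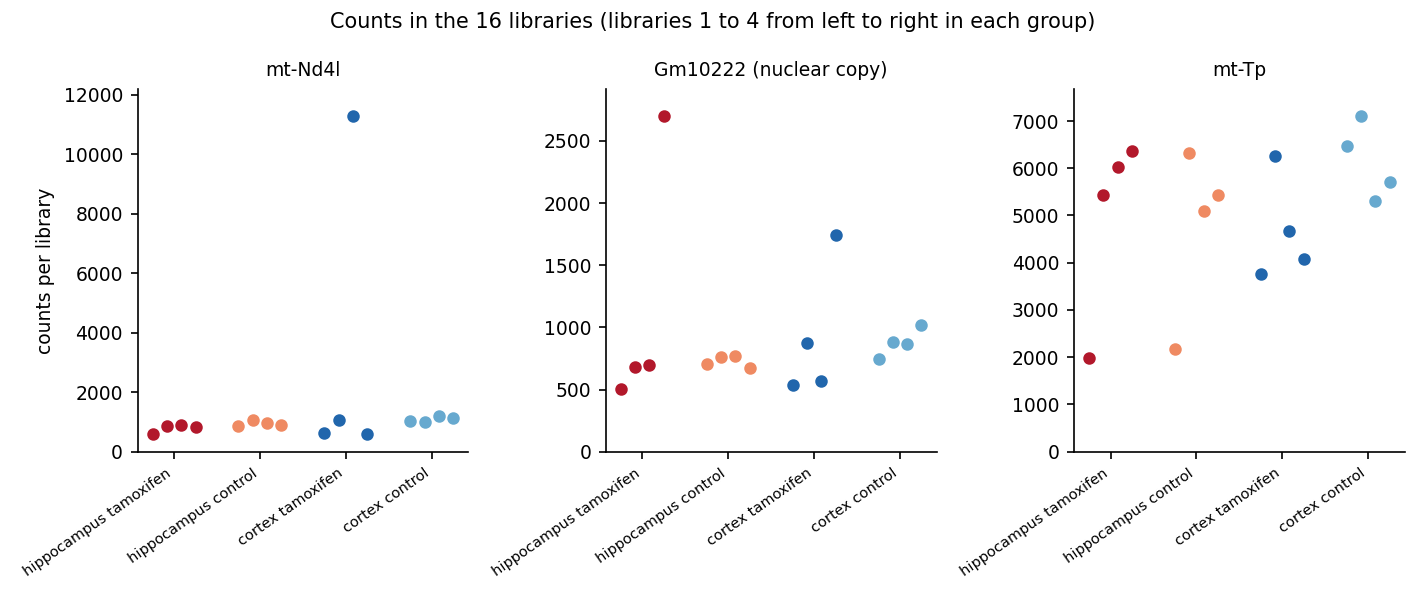
Counts of mt-Nd4l, of its nuclear copy Gm10222 and of mt-Tp in each of the 16 libraries. Cortical tamoxifen library 3 has 11292 counts of mt-Nd4l, library 4 of both tamoxifen groups has 1746 and 2701 counts of Gm10222, and library 1 of both hippocampal groups has 1976 and 2181 counts of mt-Tp.

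Of the 37 genes, 25 passed the filter on low counts and were tested among 18074 genes with edgeR: all 13 mRNAs, both rRNAs and 10 of the 22 tRNAs. With tamoxifen in hippocampus 0 of the 25 passed the edgeR threshold, as did 0% of all genes tested, and 1 member against 3.61% of all genes had an unadjusted p under 0.05. DESeq2 and limma also called 0 members. The log2 fold changes of the 9 most counted genes ran from -0.12 to 0.17, each with an edgeR adjusted p of 1. Their signs were mixed. The 6 low mRNAs lay between -0.36 (mt-Nd3 and mt-Co3) and -0.17 (mt-Atp6), where library 1 of the tamoxifen group was low in several of them. In all, 16 of the 25 members lay below 0, against 51.3% of all genes, with a median of -0.12 against -0.01. Groups that did not overlap were found in 8 members lower with tamoxifen, against 18.9% of all genes, and in 6 members higher, against 21% of all genes.

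With tamoxifen in cortex 0 of the 25 members passed either, against 0% of all genes, and 1 member, mt-Co2, against 4.97% of all genes had an unadjusted p under 0.05. DESeq2 and limma again called 0 members. The levels of mt-Co1 were 98650 and 51185 CPM in cortical tamoxifen samples, against 96273 and 103898 CPM in cortical controls. Those of mt-Cytb were 50425 and 26075 CPM in cortical tamoxifen samples, against 49015 and 55369 CPM in cortical controls. In both genes sample A lay between the controls and sample B far below them, so the groups overlapped. The log2 fold changes of the 9 most counted genes ran from -0.48 to -0.41 (edgeR adjusted p 0.83 to 0.839), and 23 of the 25 members lay below 0, against 44.6% of all genes, with a median of -0.48 against 0.04. Without sample A the median was -1.06 and 17 of 26 members tested passed with edgeR, 16 of them lower, against 10.7% of all genes. Without sample B the median was -0.10 and 0 of 26 passed, against 0.00534% of all genes. Library 3 alone set the direction of mt-Nd4l, which had 24.5 and 105 CPM in cortical tamoxifen samples, against 24.1 and 32.8 CPM in cortical controls. Its log2 fold change was 1.18 with that library and -0.62 without it (edgeR adjusted p 0.83 and 0.825). The members are not independent of one another, since each strand is transcribed as a shared precursor. Groups that did not overlap were found in 11 members, all lower with tamoxifen, against 15% of all genes lower and 16.2% higher. Of the 9 most counted genes only mt-Nd5 and mt-Nd6 were among them. For mt-Nd5 the levels were 30260 and 15937 CPM with tamoxifen against 30682 and 32764 CPM in controls. The rest were mt-Co2, mt-Atp8, mt-Nd3 and tRNA genes.

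The difference of the tamoxifen effects, hippocampus minus cortex, passed in 0 of the 25 members with edgeR, against 0% of all genes, and 0 members against 5.43% of all genes had an unadjusted p under 0.05. DESeq2 and limma called 0 members. For the 9 most counted genes it ran from 0.35 to 0.62 on the log2 scale (edgeR adjusted p 0.92 to 0.967). Of the 25 members 5 lay below 0, against 54.2% of all genes. Their median was 0.44, against -0.04 over all genes, and it was 0.003 without cortical tamoxifen sample B and 1.07 without sample A.

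**Figure D5:**
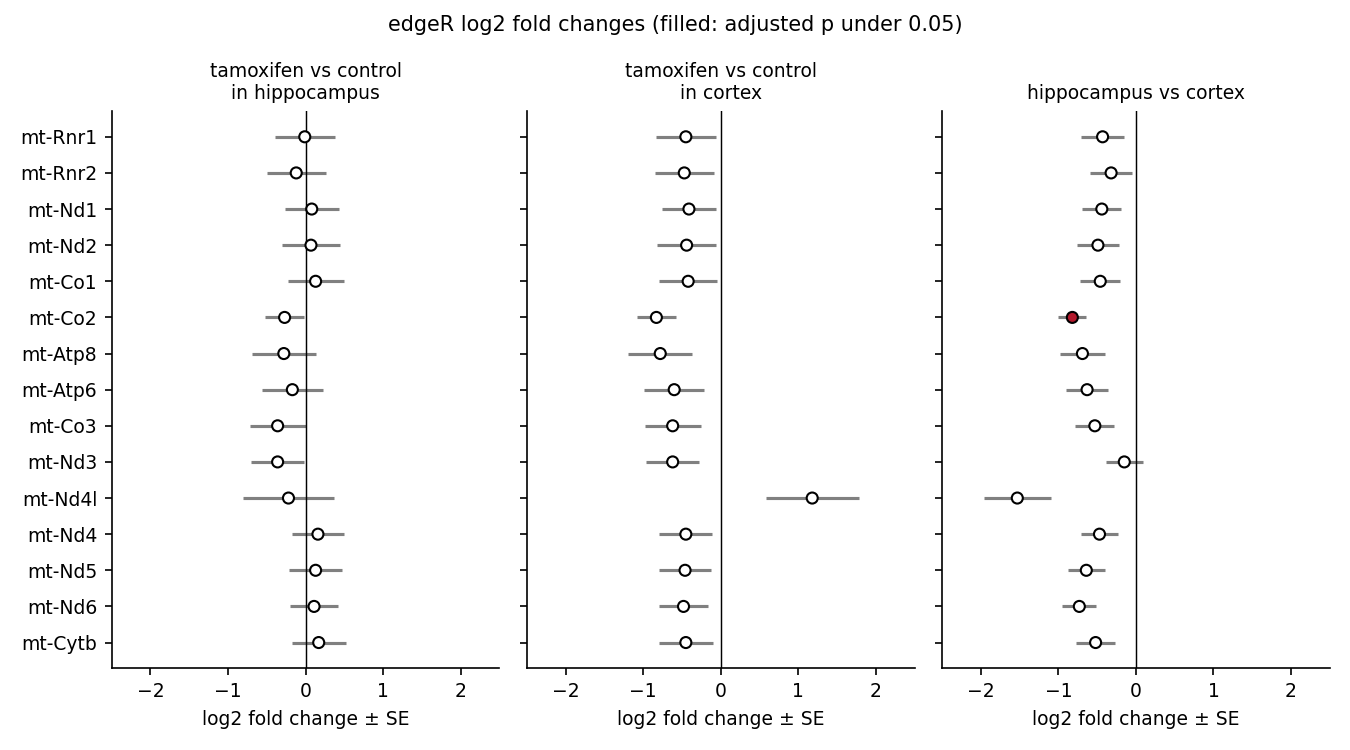
Log2 fold changes (edgeR, ± SE) of the 13 mRNAs and 2 rRNAs for tamoxifen against control in hippocampus and in cortex and for hippocampus against cortex over both labels, with a filled point where the adjusted p is under 0.05. mt-Co2 in the regional comparison, at -0.82, is the one filled point.

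Between regions 1 of the 25 members passed the edgeR threshold, against 18.4% of all genes, and it was lower in hippocampus, against 9.94% of all genes called lower. This was mt-Co2, with 51.1 and 60.4 CPM in hippocampal tamoxifen samples and 73.0 and 60.9 CPM in hippocampal controls, against 99.7 and 62.4 CPM in cortical tamoxifen samples and 125 and 163 CPM in cortical controls. The regions overlapped through cortical tamoxifen sample B. The near-repeat libraries of cortical controls were uneven in this gene, with 6279 and 4251 counts in libraries 1 and 2 and 4383 and 7210 in libraries 3 and 4. The log2 fold change was -0.82 (SE 0.18, edgeR adjusted p 0.0232). It did not pass without cortical tamoxifen library 3 (log2 fold change -0.75, edgeR adjusted p 0.069), an alternative added after seeing the data. It did not pass without any 1 of the cortical control or hippocampal samples either (edgeR adjusted p 0.0585 to 0.101).

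All 25 members lay below 0 in hippocampus against cortex, compared with 49.9% of all genes, and their median was -0.53, against 0.001. mt-Nd6 was the nearest to the threshold of the 9 most counted genes, at -0.73 (SE 0.22, edgeR adjusted p 0.0626), and mt-Nd5 followed at -0.64 (SE 0.24, edgeR adjusted p 0.106). mt-Nd6 had 4736 and 5478 CPM in hippocampal tamoxifen samples and 4277 and 5166 CPM in hippocampal controls, against 8909 and 4829 CPM in cortical tamoxifen samples and 9153 and 10033 CPM in cortical controls. Only cortical tamoxifen sample B fell among the hippocampal samples. For mt-Nd4l the CPM were 12.6 to 16.1 in hippocampal samples, against 24.1 to 105 in cortical samples. The log2 fold change was -1.53 (SE 0.43, edgeR adjusted p 0.0541), and -0.62 without cortical tamoxifen library 3. Groups that did not overlap were found in 2 of the 25 members, mt-Nd4l and mt-Te, both lower in hippocampus, against 15.2% of all genes. Without cortical tamoxifen sample B 18 of 26 members tested passed, against 23.4% of all genes, with a median of -0.72. Without sample A of that group 3 of 26 passed, against 32.5% of all genes, with a median of -0.19 and 21 members below 0. Scaled to total mitochondrial counts, 0 members passed with edgeR, 16 lay below 0 and their median was -0.06, while the median of all genes moved to 0.38.

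The tRNA genes fell into 2 sets. mt-Tn, mt-Tc and mt-Tp, which carry asparagine, cysteine and proline, held 98.95% of all tRNA counts and were the only tRNA genes with a mean of at least 20 CPM. mt-Tn had 1344 to 2444 counts per library, mt-Tc 2745 to 5249 and mt-Tp 1976 to 7109. The 19 others had 0 to 41 counts, and mt-Tk was at 0 in all 16 libraries. The 3 genes are on the light strand, as are 5 of the 19 others. Their place sets them apart from most others: mt-Tn and mt-Tc flank an unannotated gap of 32 bases, the region of the light-strand origin of replication, and mt-Tp is the last annotated gene before the control region. Among the 19 others the largest gap to an annotated neighbour is 5 bases, but mt-Tf, which borders the control region on its other side, had 11 to 41 counts. Whether these counts come from tRNA or from longer RNA across the gaps was not tested.

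The 3 sequences (GRCm38, minus strand, from GENCODE M21, shown 5′ to 3′ with the anticodon in capitals) are those of mt-Tn (MT:5089-5159), mt-Tc (MT:5192-5257) and mt-Tp (MT:15356-15422). They are shown because nearly all tRNA counts fell on them.
mt-Tn: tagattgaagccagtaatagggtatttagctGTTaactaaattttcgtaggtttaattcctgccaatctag
mt-Tc: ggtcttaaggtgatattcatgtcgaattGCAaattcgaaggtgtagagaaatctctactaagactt
mt-Tp: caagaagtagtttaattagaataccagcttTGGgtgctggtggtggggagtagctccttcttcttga

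Counts of mt-Tc came to 62.7 and 74.4 CPM in hippocampal tamoxifen samples against 81.9 and 75.1 CPM in hippocampal controls, and to 103 and 53.9 CPM in cortical tamoxifen samples against 117 and 112 CPM in cortical controls. Those of mt-Tn came to 30.3 and 36.2 CPM with tamoxifen against 37.3 and 33.5 CPM in controls in hippocampus, and to 48.9 and 25.8 CPM against 53.1 and 51.3 CPM in cortex. Both were lowest, among cortical samples, in tamoxifen sample B. In hippocampus mt-Tc was lower with tamoxifen without overlap, and mt-Tn overlapped. Those of mt-Tp came to 63.2 and 108 CPM in hippocampal tamoxifen samples against 71.2 and 89.8 CPM in hippocampal controls, where both low values are samples A. In each of these, library 1 was the low one, with 1976 counts in the tamoxifen and 2181 in the control group, against 3757 to 7109 in the 14 other libraries. mt-Tc had no drop of this size in controls, with 9793 counts in hippocampal control sample A and at most 5249 in any library. Short nuclear genes were also low in library 1 with tamoxifen, while in controls their shift was close to that of another pair. Of nuclear genes of at most 150 bases with over 400 counts in the pair, library 1 over library 2 had a median log2 ratio of -1.65 with tamoxifen (6 genes) and -0.49 in controls (3 genes). Longer genes stood at 0.03 and 0.01, and short genes in the 6 other pairs at -0.39 to 0.27. The edgeR log2 fold changes with tamoxifen were -0.20, -0.09 and 0.09 for mt-Tc, mt-Tn and mt-Tp in hippocampus and -0.54, -0.48 and -0.51 in cortex, and none passed the threshold.

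The nuclear genes that express and complement the mitochondrial genome were read beside it. Of 38 listed genes for transcription, replication, processing and decay of mitochondrial RNA, 37 were tested, and 0 passed with tamoxifen in hippocampus (median log2 fold change -0.07) or in cortex (median 0.01), against 0% of all genes. The nearest in cortex were Slirp at -0.21, a partner of the mRNA-stabilising protein Lrpprc, Polg2 at -0.47, an accessory subunit of the mitochondrial DNA polymerase, and Fastkd1 at -0.32, with Mterfd2 at 0.42, Tfb1m at 0.61 and Pde12 at 0.15 in the other direction. In hippocampus Lrpprc stood at -0.34, the RNA-binding protein Grsf1 at -0.24 and the elongation factor Tefm at -0.40, with Gm9897 at 0.51, the topoisomerase Top1mt at 0.17 and the single-strand binding protein Ssbp1 at 0.13. Each had an edgeR adjusted p of at least 0.83.

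Between regions 1 of the 37 passed, below the 18.4% of all genes called, and it was lower in hippocampus. This was Fastk, whose mitochondrial isoform is needed for mt-Nd6 mRNA. It had 47.6 and 46.7 CPM in hippocampal tamoxifen samples and 48.2 and 43.0 CPM in hippocampal controls, against 56.9 and 60.1 CPM in cortical tamoxifen samples and 58.0 and 61.0 CPM in cortical controls. The regions did not overlap, and the log2 fold change was -0.35 (SE 0.08, edgeR adjusted p 0.028). Of the 35 nuclear subunits of the respiratory complexes and ATP synthase, 0 passed with tamoxifen in either region, with medians of -0.03 in hippocampus and 0.01 in cortex. The lowest p-values were those of Sdhd at -0.18, Sdhc at -0.16 and Uqcrb at -0.13 in hippocampus, and of Ndufs3 at 0.19, Uqcrc2 at 0.16 and Ndufv1 at 0.16 in cortex. Between regions 32 of the 35 lay below 0, against 49.9% of all genes, with a median of -0.17 against 0.001 over all genes. Of the 35, 1 passed, the complex I subunit Ndufb3, below the 18.4% of all genes called. Its levels were 28.1 and 28.3 CPM in hippocampal tamoxifen samples and 28.6 and 25.7 CPM in hippocampal controls, against 33.7 and 33.0 CPM in cortical tamoxifen samples and 33.1 and 35.5 CPM in cortical controls (log2 fold change -0.29, SE 0.08, edgeR adjusted p 0.0488).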

How the data were processed

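Per the submitters' processing notes, STAR and HTSeq were used with mm10. Their versions, the annotation and the strand setting are not stated there. The deposited counts are whole numbers of reads per gene, not normalized. The deposited RPKM column, per the file headers, was recomputed from count, exon length and the total of all rows, matched 100% of the values, and entered no test. Reads without a gene were left out of library sizes and of totals of counts in genes, and entered only the shares of all reads and the RPKM check. Of all counts, 27.5 to 35.4% were aligned to several places, 3.64 to 7.93% lay outside genes and 1.38 to 1.86% were ambiguous.

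The 37 members, the gene lists and the named genes were chosen with earlier results of these data known. Every mRNA and rRNA is named, tRNAs only with a mean of at least 20 CPM or as extremes, and list genes that passed or the 3 of smallest p in each direction. Of the list genes 7 were matched through their gene ID. Neighbouring libraries were summed after their values were seen, while separate libraries are an alternative. Shares per sample were compared by two-sided exact permutation tests, within labels for the regional and within regions for the tamoxifen comparisons. Genes were filtered (filterByExpr), scaled by TMM and fitted over all 8 samples in edgeR 4.0.16 (robust quasi-likelihood test, R 4.3.3), with Benjamini-Hochberg adjustment over 18074 genes and a threshold of 0.05. CPM per sample use TMM library sizes. CPM per kilobase use each library's counts in genes and are scaled to 1000 bases. The edgeR fit was tested on simulated counts with known changes, for tamoxifen against control in cortex only. Alternatives were other scalings, no filter, DESeq2 1.42.0, limma 3.58.1 (voom with quality weights), separate libraries, a replicate block, leaving out each sample and, added after seeing the data, scaling to mitochondrial counts, leaving out single libraries, and leaving out each sample for single gene and class shares and ratios. Windows of 100 bases were compared with the GENCODE M21 transcripts, whose coordinates match the files for all 37 genes. Counting error is small for the 9 most counted genes and the number of samples limits precision.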

Additional observations from a re-analysis of the deposited data

Results flagged for a closer look

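Each group's 4 libraries were screened for 1 library standing far from the other 3, over 20 quantities and 80 groups of libraries. Of these, 9 stood apart, where chance alone flags about 1 in 20. Libraries 1 and 2, and 3 and 4, are near repeats, so the 4 are not independent and the rate of 1 in 20 does not hold for them. As a share of the mitochondrial counts, mt-Nd4l was 0.0982% in cortical tamoxifen library 3 against 0.00628 to 0.00708% in its group, and mt-Co2 was 0.0416% there against 0.0261 to 0.0284%. Hippocampal tamoxifen library 1 was low in 4 genes: mt-Co2 at 0.0181% against 0.0248 to 0.0262%, mt-Atp6 at 0.0208% against 0.0281 to 0.0293%, mt-Co3 at 0.0238% against 0.0346 to 0.0361%, and mt-Nd4l at 0.00451% against 0.00621 to 0.00642%. Hippocampal tamoxifen library 4 was high in mt-Atp8, at 0.00309% against 0.00229 to 0.00242%. The nuclear copy Gm10222 was at 52.7 CPM in hippocampal tamoxifen library 4 against 9.83 to 12.6 CPM, and at 12.5 CPM in hippocampal control library 4 against 13.9 to 14.2 CPM. All 9 fall on the 6 low mRNAs or on the nuclear copy, and none on the 9 most counted genes or on the total mitochondrial share. The rule seeks 1 library apart from the other 3, so it misses 2 neighbours that stand apart together. In the total share, cortical tamoxifen libraries 3 and 4 did so, at 20.1 and 20.7% against 29.7 and 30.0% in libraries 1 and 2. The lack of a flag there is thus no sign of evenness.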

How the results depend on the processing

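Counts of genes called moved as follows. With tamoxifen in cortex 0 genes were called, against 1 without a filter, 8 by DESeq2, 562 with separate libraries, 3 scaled to mitochondrial counts and 0 to 2014 when a sample was left out, with 0 to 17 mitochondrial genes. In hippocampus 0 were called, against 9, 318 and 3 by DESeq2, separate libraries and mitochondrial scaling, and for the difference of effects 0, against 9 by DESeq2 and 867 with separate libraries. Where 1 sample of a group was left out, the lone sample was assumed to vary like the other groups. Separate libraries count near repeats as replicates, so their p-values are too small. Between regions 3318 genes were called, against 8480 with separate libraries, 2110 with the replicate block, 2145 scaled to mitochondrial counts and 369 to 6144 when a sample was left out. The mitochondrial genes among them were 1, against 2 without a filter, 7 by DESeq2, 4 by limma, 18 with separate libraries, 0 scaled to mitochondrial counts, 0 without cortical tamoxifen library 3 and 0 to 18 when a sample was left out. Of all genes, DESeq2 called 4717 of 18074 between regions, limma 2937 of 18074 and edgeR without a filter 3095 of 26901. The mitochondrial genes tested there were 25, 25 and 36. Scaled to mitochondrial counts, the median log2 fold change of all genes was 0.66 in cortex, -0.08 in hippocampus, -0.74 for the difference of effects and 0.38 between regions. The cause of these changes was not tested.

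The tamoxifen difference in mitochondrial share in cortex ran from -10.9 to -1.37 when a sample was left out, and the difference of effects from 2.12 to 11.65 (main value 6.88). As a share of all reads the hippocampal difference was -0.0411 (main value 0.749) and the difference of effects 2.915. The rRNA difference in cortex ran from -1.88 to 0.392 when a sample was left out, and was 0.217 without cortical control sample A. Deviations of same-letter samples correlated at -0.389 to 0.275, which with 2 samples per group cannot tell whether samples were paired. The replicate block cannot move a difference in mean share in this balanced design. Its pairs were -1.12 and -11.1 in cortex (mean -6.13) and 0.277 and 1.22 in hippocampus (mean 0.749). In the fit over all genes it called 1 mitochondrial gene between regions. For the 18 named mitochondrial genes and 19 alternatives, sign changes numbered 8 of 342 values in hippocampus, 8 in cortex, 18 for the difference of effects and 9 between regions.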
